A study of Mus musculus with 25 samples.

Results

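The transcription factors E2f1, E2f2, E2f3, E2f7, E2f8, Mybl1, Mybl2, Foxm1 and Myc, which drive hepatocyte proliferation and polyploidy, were examined in mouse liver by RNA sequencing. They were taken by gene symbol from the deposited count table and make up 9 of its 56980 genes. The mice were male C57BL/6J, 8 weeks old at the start and 20 weeks old at the end, with no engineered allele named in the labels. The disease groups received FAT-MASH, a fibrotic fatty liver regimen made of a high-fat, high-sucrose, high-cholesterol chow, drinking water with fructose and glucose, and weekly intraperitoneal carbon tetrachloride. Mannose was dissolved in the water at 5% or 20%. Prevention groups drank it throughout the 12 weeks and therapy groups during the last 6, and the FAT-MASH controls received the same diet, sugar and carbon tetrachloride without it. The labels give 2 batch dates. The first held 3 libraries each of normal diet, FAT-MASH, 5% prevention, 20% prevention, 5% therapy and 20% therapy. The second held normal diet (2 libraries), normal diet with 5% mannose (2 libraries) and normal diet with 20% mannose (3 libraries), and the batches were kept apart. Mice shared cages and drank mannose from the water, and cage was not in any fit. Where livers of a group shared a cage, cage and mannose cannot be told apart. The tests take each liver as independent, so SE and p may be too small. RNA came from whole liver, so fewer cells of a type and less RNA per cell cannot be told apart.

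E2F factors bind DNA with a DP partner. E2f1, E2f2 and E2f3 activate genes of DNA replication once cyclin D and its kinases have inactivated the RB protein, whereas E2f7 and E2f8 are atypical repressors that need no partner and feed back on the activators. In mouse liver the E2F7 and E2F8 proteins are needed for hepatocytes to become polyploid, with E2F1 acting against them. B-MYB (Mybl2) joins the MuvB complex and then FOXM1 to switch on genes of G2 and mitosis; A-MYB (Mybl1) is a relative best known from male germ cells. MYC drives growth and ribosome building, and its gene is an early responder in regenerating liver.

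Library totals lay between 31298299 and 56010646 counts in the first batch and between 35971380 and 49752882 in the second. All 7 hepatocyte markers were present in every group, with a summed level of 63047 to 110747 CPM (counts scaled to library size, by trimmed means of M-values within a batch). Libraries of 1 group always differed beyond counting noise (chi-square over its degrees of freedom at least 21.2). Normal diet replicate 1 stood apart in B and plasma cell markers, at 56.5 CPM against 8.23 to 8.49 CPM in the other 2 libraries of its group.

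The promoters of 4 E2F and MYB genes are shown because E2F factors are known to control their own family and because each held a match to E2F letters. The sequences are the 250 bases before the start that RefSeq annotates, on GRCm38.p6, read along the gene's strand; capitals mark E2F core letters (the letters TTCCCGC, the letters TTGGCGC, the letters TTCGCGC or the letters TTGCCGC) or the overlapping GGCGGGA, searched on both strands.
E2f3, chr13:29986064-29986313, minus strand: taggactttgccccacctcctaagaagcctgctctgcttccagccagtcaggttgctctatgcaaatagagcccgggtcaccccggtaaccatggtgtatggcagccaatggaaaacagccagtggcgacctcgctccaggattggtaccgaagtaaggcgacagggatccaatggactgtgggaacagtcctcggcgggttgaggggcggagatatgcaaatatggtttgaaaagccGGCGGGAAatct
E2f7, chr10:110745189-110745438, plus strand: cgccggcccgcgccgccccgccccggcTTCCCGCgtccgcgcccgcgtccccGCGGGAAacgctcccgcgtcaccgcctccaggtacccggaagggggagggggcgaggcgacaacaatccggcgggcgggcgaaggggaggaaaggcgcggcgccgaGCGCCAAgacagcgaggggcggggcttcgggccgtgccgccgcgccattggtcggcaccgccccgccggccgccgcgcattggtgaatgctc
E2f8, chr7:48881597-48881846, minus strand: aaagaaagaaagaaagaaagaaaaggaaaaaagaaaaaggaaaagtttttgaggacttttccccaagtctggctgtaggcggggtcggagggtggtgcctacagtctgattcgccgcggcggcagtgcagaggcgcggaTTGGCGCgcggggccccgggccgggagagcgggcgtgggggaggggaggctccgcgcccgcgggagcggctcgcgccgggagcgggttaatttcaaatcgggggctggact
Mybl2, chr2:163054385-163054634, plus strand: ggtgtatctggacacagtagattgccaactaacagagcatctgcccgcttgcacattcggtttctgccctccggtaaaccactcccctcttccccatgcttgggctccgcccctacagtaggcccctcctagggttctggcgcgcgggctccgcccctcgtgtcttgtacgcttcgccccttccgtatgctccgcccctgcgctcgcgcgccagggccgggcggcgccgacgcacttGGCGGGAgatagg
The E2f7 window held 3 E2F core matches, the E2f3 window 1 and the E2f8 window 1, where 7.89% of 32851 promoters of the same length held at least 1. The match in E2f3 overlapped a GGCGGGA, which the Mybl2 window held without a core match; 9.75% of promoters held GGCGGGA. Letters of the cell cycle homology region (TTTGAA or TTCGAA), found in 17.1% of promoters, were present in E2f3 and E2f8. A CCAAT box, found in 33.8% of promoters, was present in E2f3, E2f7 and E2f8; in E2f8 it overlapped the E2F core match. The Mybl2 window ended 52 bases from the gene start of the GENCODE annotation. Of the windows not shown, the E2f1 window and both E2f2 windows held neither an E2F core nor GGCGGGA, and a second E2f3 window held GGCGGGA. Their annotated starts lay 466 bases (E2f1), 120 and 8388 bases (E2f2) and 1672 bases (second E2f3) from the GENCODE gene start. The E2f1 window and the windows at 8388 and 1672 bases lay inside the gene. A lack of letters in these windows therefore does not show that the promoter lacks them. These are matches of letters, not sites shown to be bound.

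On a scale that allows comparison between genes, CPM per kilobase of exon (RPKM), the 9 factors spanned a wide range. In FAT-MASH livers Myc had the highest level (mean 2.72 RPKM), followed by E2f3 (1.59 RPKM), E2f1 (1.35 RPKM), E2f2 (0.779 RPKM), E2f8 (0.547 RPKM) and Mybl1 (0.515 RPKM), with Foxm1 (0.098 RPKM), Mybl2 (0.079 RPKM) and E2f7 (0.031 RPKM) at the bottom. In 20% therapy Myc was again first (8.75 RPKM), but Mybl1 had moved to second place (4.49 RPKM), ahead of E2f1 (2.53 RPKM) and E2f3 (2.29 RPKM). In the first batch, from 20% therapy down through 20% prevention, 5% prevention and 5% therapy, neighbouring groups of Mybl1 did not overlap; 5% therapy overlapped FAT-MASH, and normal diet lay below both. For Foxm1, 20% therapy lay above 20% prevention and 20% prevention above 5% prevention, and the lower 4 groups overlapped in turn. E2f3 had 1 gap, between 5% therapy and 5% prevention. For the other factors every neighbouring pair of groups overlapped.

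**Figure D1:**
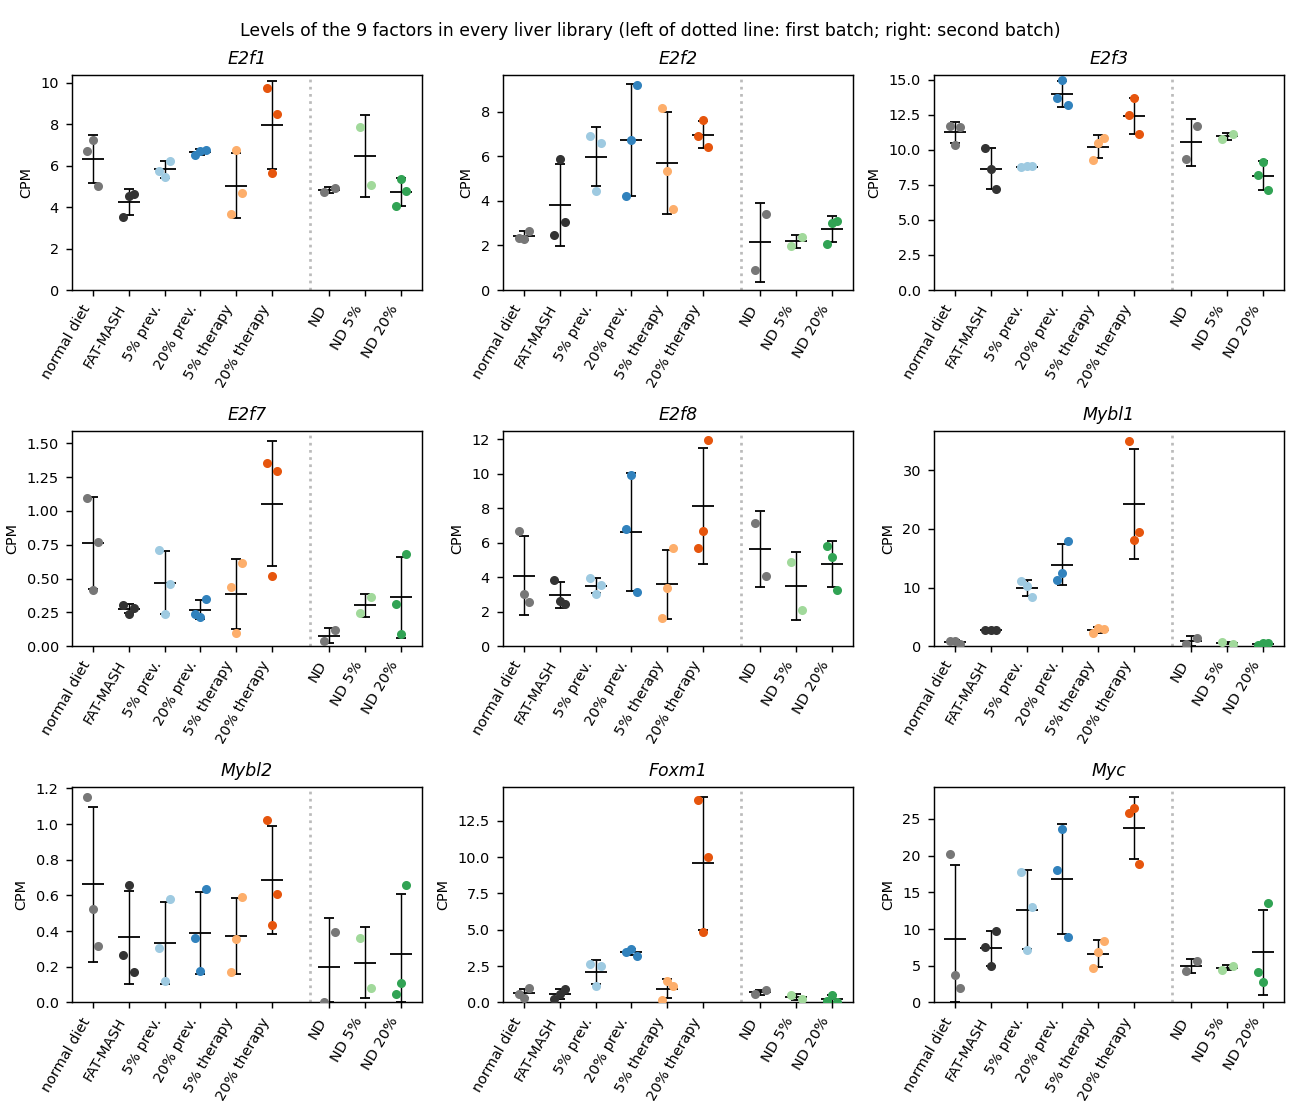
Level of each factor (CPM, linear axis from 0) in every library, as points, with group mean and SD as bars (the lower bar stops at 0); "prev." is prevention and ND is normal diet in the second batch, whose CPM was scaled separately. Mybl1 steps up from normal diet to FAT-MASH and again in both prevention groups and in 20% therapy, while Foxm1 reaches 4.82 to 13.9 CPM in 20% therapy.

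The regimen itself raised 1 of the 9 factors, Mybl1, with 13.7% of 19571 genes called in either direction and 7.81% called higher (edgeR quasi-likelihood test, Benjamini-Hochberg adjusted p under 0.05). Mybl1 (GRCm39 1:9737640-9770434) stood at 0.876, 0.940 and 0.419 CPM on normal diet and at 2.86, 2.76 and 2.73 CPM in FAT-MASH. All 3 FAT-MASH livers lay above all 3 normal-diet livers, a log2 fold change of 1.87 ± 0.30 (SE, n = 3 and 3; edgeR adjusted p = 0.00035). With sample quality weights in limma-voom the adjusted p was 0.0501. The atypical repressor E2f7 and the activators E2f1 and E2f3 had lower ranges in FAT-MASH that did not overlap those on normal diet, 3 of 9 members where 15.1% of all genes did so. None of them passed the test: the log2 differences were -1.45 ± 0.63 for E2f7, -0.58 ± 0.23 for E2f1 and -0.37 ± 0.14 for E2f3, with edgeR adjusted p of 0.142, 0.110 and 0.0868. E2f3 passed when FAT-MASH replicate 1 was left out (log2 difference -0.50, edgeR adjusted p = 0.0413) and in DESeq2 (adjusted p = 0.0474). For Myc the direction rested on 1 library. Its normal-diet livers had 20.2, 3.81 and 1.96 CPM, the first being the library high in B and plasma cell markers, and its FAT-MASH livers had 7.52, 4.97 and 9.69 CPM. The log2 difference was -0.24 ± 0.56 with that library and 1.33 without it (edgeR adjusted p 0.845 and 0.0623). The part of those markers in this value was not tested.

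Mannose at 20% raised 7 of the 9 factors when given as therapy and 3 as prevention; none fell. The 7 in therapy were E2f1, E2f3, E2f7, E2f8, Mybl1, Foxm1 and Myc, where 21.4% of all genes were called and 10.2% were called higher. The 3 in prevention were E2f3, Mybl1 and Foxm1, where 15.1% were called and 6.83% were called higher. Mannose at 5% raised Mybl1 alone in prevention, where 2.27% of genes were called and 0.966% were called higher, and in therapy no factor passed, where 0.0358% of genes were called. No factor had an unadjusted p under 0.05 in 5% therapy; DESeq2 called 0 there too. Ranges lay above FAT-MASH without overlap for 8 of 9 factors in 20% therapy and 4 in 20% prevention. They did so for 3 in 5% prevention and 0 in 5% therapy. Over all genes this held for 18.1%, 15.9%, 9.99% and 5.33%. With library totals in place of trimmed means, 82.9% of calls over all genes were higher in 20% therapy instead of 47.4%, 76.4% instead of 45.3% in 20% prevention and 71.8% instead of 42.5% in 5% prevention. The median log2 difference over the 9 factors was 1.44 in 20% therapy, 0.83 in 20% prevention, 0.66 in 5% prevention and 0.25 in 5% therapy, beside 0.00, 0.01, 0.01 and -0.01 over all genes tested. These 4 comparisons share the 3 FAT-MASH control livers, so their values are set side by side and are not independent. In 20% therapy the count of 7 fell to 3 without FAT-MASH replicate 3 and to 4 without 20% therapy replicate 1; Mybl1 and Foxm1 passed in all 14 alternatives in both 20% comparisons.

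Among the activators, E2f1 (2:154401327-154411812), the founding member that switches on replication genes, had 3.55, 4.55 and 4.65 CPM in FAT-MASH and 9.74, 5.64 and 8.52 CPM in 20% therapy. All 3 therapy livers lay above all controls, and the log2 rise was 0.91 ± 0.23 (edgeR adjusted p = 0.00747); without 20% therapy replicate 1 the adjusted p was 0.0525. In 20% prevention E2f1 was tightly grouped at 6.53, 6.69 and 6.79 CPM, above all controls, with a log2 difference of 0.65 ± 0.23 that did not pass in edgeR (adjusted p = 0.0644). In 5% prevention it had 5.76, 5.46 and 6.24 CPM, also above all controls. The log2 difference there, 0.46 ± 0.23, did not pass in edgeR (adjusted p = 0.369). In 5% therapy it had 3.66, 6.74 and 4.69 CPM, which overlapped the controls. E2f3 (13:30090558-30170046), an activator with a long and a short isoform, had 10.1, 8.66 and 7.18 CPM in FAT-MASH, 13.7, 14.96 and 13.2 CPM in 20% prevention and 12.5, 13.7 and 11.1 CPM in 20% therapy. Both 20% groups lay wholly above the controls. The log2 rise of E2f3 was 0.69 ± 0.14 in prevention and 0.52 ± 0.14 in therapy (edgeR adjusted p 0.00222 and 0.0111). The therapy call was lost without FAT-MASH replicate 3 (edgeR adjusted p = 0.0656) and without 20% therapy replicate 2 (edgeR adjusted p = 0.0529). E2f2 (4:135899705-135923368), the third activator, was higher per library in 20% therapy (6.90, 7.64 and 6.40 CPM) than in FAT-MASH (2.46, 5.90 and 3.04 CPM). Its ranges were apart, but the log2 difference of 0.88 ± 0.33 did not pass in edgeR (adjusted p = 0.0645); without FAT-MASH replicate 2, the highest control, it was 1.36 and passed (edgeR adjusted p = 0.00914).

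Of the atypical repressors, E2f7 (10:110581300-110623245) was the scarcest factor per length in FAT-MASH, with 8 to 16 counts a library. It had 0.305, 0.240 and 0.282 CPM in FAT-MASH and 1.35, 0.521 and 1.29 CPM in 20% therapy. The groups did not overlap, and the log2 rise was 1.92 ± 0.62 (edgeR adjusted p = 0.0331). That call was lost without any of the 3 controls (edgeR adjusted p 0.0779 to 0.0982), without 20% therapy replicate 1 (0.115) or replicate 3 (0.101). In 20% prevention E2f7 stayed at 0.242, 0.219 and 0.353 CPM, overlapping the controls, with a log2 difference of -0.02 ± 0.64 (95% interval -1.36 to 1.31). E2f8 (7:48516177-48531344), its partner repressor, had 3.82, 2.64 and 2.48 CPM in FAT-MASH, 6.82, 9.95 and 3.14 CPM in 20% prevention and 5.71, 6.68 and 12.0 CPM in 20% therapy. Therapy livers lay above all controls, with a log2 rise of 1.44 ± 0.45 (edgeR adjusted p = 0.0258), whereas 1 prevention liver fell among the controls and the difference of 1.15 ± 0.45 did not pass (edgeR adjusted p = 0.0939). The therapy call was lost without FAT-MASH replicate 2 (edgeR adjusted p = 0.0857), FAT-MASH replicate 3 (0.0853) or 20% therapy replicate 3 (0.144). E2f8 shares exon bases with the antisense gene Gm2788, and no strand setting is given for the counting, so reads in the overlap cannot be assigned. Reads in exon bases that E2f7 shares with 1700020G17Rik, and Foxm1 with Tex52 and Gm44596, cannot be assigned either. Those overlapping genes of E2f7 and Foxm1 had at most 4 counts in a library. Gm2788 moved the other way in 20% therapy, by -0.99 ± 0.33 on the log2 scale (edgeR adjusted p = 0.0353).

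The MYB genes parted. Mybl1 rose in 3 of the 4 mannose groups: it had 11.1, 10.3 and 8.38 CPM in 5% prevention, 11.3, 12.5 and 17.9 CPM in 20% prevention and 35.0, 18.2 and 19.6 CPM in 20% therapy, against 2.73 to 2.86 CPM in the controls. Every liver of these 3 groups exceeded every control. The log2 rise was 1.83 ± 0.26 in 5% prevention, 2.32 ± 0.26 in 20% prevention and 3.12 ± 0.27 in 20% therapy, with edgeR adjusted p of 0.00126, 1.86e-05 and 2.64e-07. In 5% therapy Mybl1 had 2.27, 3.16 and 2.93 CPM, on both sides of the controls, with a log2 difference of 0.01 ± 0.27 (edgeR adjusted p = 1.00). Mybl2 (2:162896607-162926608), the MYB gene of the MuvB complex, was near the bottom everywhere. Its FAT-MASH livers had 0.267, 0.659 and 0.169 CPM and its 20% therapy livers 1.02, 0.434 and 0.609 CPM. The groups overlapped, and the log2 difference of 0.93 ± 0.71 did not pass (edgeR adjusted p = 0.404); its 95% interval, -0.56 to 2.41, was wide at 6 to 50 counts a library.

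Foxm1 (6:128339930-128353109), the forkhead factor of the G2 to M transition, had the largest fold change among the 9 in both 20% comparisons. It had 0.229, 0.569 and 0.901 CPM in FAT-MASH, 3.51, 3.65 and 3.23 CPM in 20% prevention and 13.9, 4.82 and 9.98 CPM in 20% therapy. No mannose liver of these groups overlapped the controls. The log2 rise was 2.64 ± 0.57 in prevention and 4.11 ± 0.59 in therapy (edgeR adjusted p 0.00356 and 4.9e-05), the latter a 17.3-fold fitted change. In 5% prevention Foxm1 had 2.68, 1.15 and 2.48 CPM, above all 3 controls, and the log2 difference of 1.93 ± 0.57 did not pass in edgeR (adjusted p = 0.0858) but did in DESeq2 (adjusted p = 0.0136). In 5% therapy it had 0.204, 1.49 and 1.17 CPM, spread around the controls.

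Myc (15:61857240-61862223) had 7.52, 4.97 and 9.69 CPM in FAT-MASH, 18.0, 23.7 and 8.88 CPM in 20% prevention and 25.9, 26.5 and 18.9 CPM in 20% therapy. Therapy livers were all above the controls and 1 prevention liver was not. The log2 rise in therapy was 1.68 ± 0.56 (edgeR adjusted p = 0.0378), and the prevention difference of 1.19 ± 0.56 did not pass (edgeR adjusted p = 0.172). The therapy call was lost when any control was left out (edgeR adjusted p 0.0511 to 0.136) and without 20% therapy replicate 1 (0.0885) or replicate 2 (0.0789), although the log2 value kept between 1.48 and 1.93 in those fits. Myc in 5% prevention (17.8, 7.18 and 12.97 CPM) and in 5% therapy (4.75, 6.82 and 8.36 CPM) overlapped the controls.

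**Figure D2:**
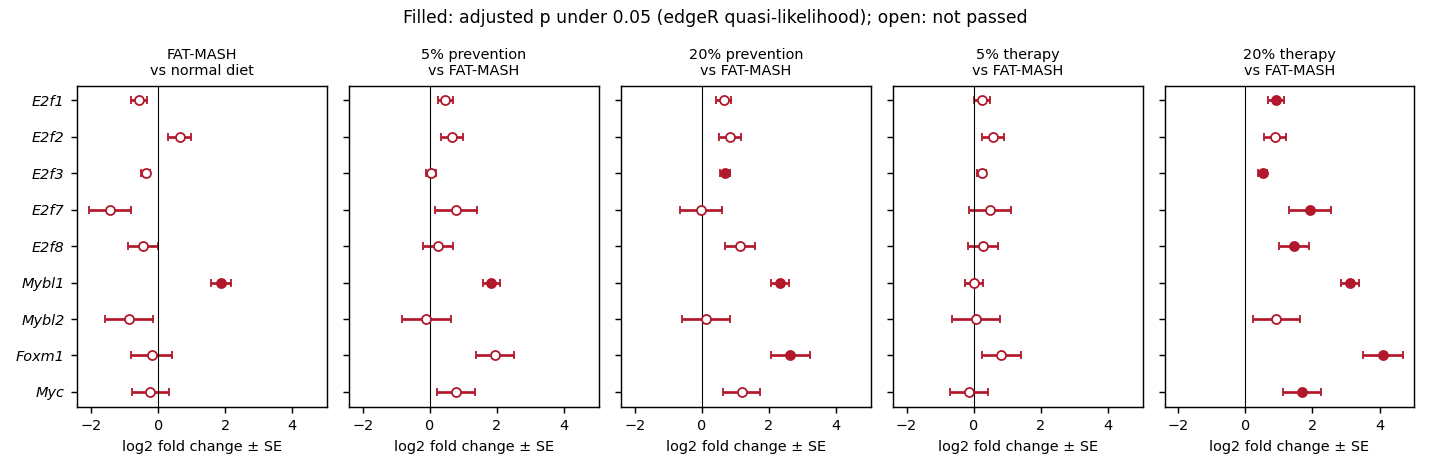
Log2 fold change with SE for each factor in 5 comparisons (3 libraries per group); filled points passed at adjusted p under 0.05 in edgeR's quasi-likelihood test. FAT-MASH against normal diet and 5% prevention each have 1 filled point, Mybl1; 20% prevention has 3, 5% therapy none and 20% therapy 7.

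Within 20% therapy the livers differed from each other. Replicate 1 was the highest of the 3 for 5 of the 9 factors, with Mybl1 at 35.0 CPM and Foxm1 at 13.9 CPM, and replicate 2 was the lowest for 5. In the weaker groups, 5% therapy replicate 1 and 5% prevention replicate 2 were each the lowest of their group for 7 of the 9 factors.

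Doses were compared within each schedule. Against 5% therapy, 20% therapy raised Mybl1 (log2 3.11 ± 0.27), Foxm1 (3.29 ± 0.56) and Myc (1.83 ± 0.56), 3 of 9 factors where 17.7% of genes were called and 8.33% were called higher (edgeR adjusted p 9.16e-07, 0.000341 and 0.0294). The Myc call was lost without any 1 of 5 of the 6 libraries, all but 20% therapy replicate 3 (edgeR adjusted p 0.0529 to 0.113). In prevention 1 factor passed between doses, E2f3, with a log2 rise of 0.66 ± 0.14 (edgeR adjusted p = 0.0447), where 0.445% of genes were called and 0.107% were called higher. This call was lost without 5 of the 6 libraries, all but 20% prevention replicate 3 (edgeR adjusted p 0.0841 to 0.217). Mybl1 did not pass between prevention doses (0.49 ± 0.25, edgeR adjusted p = 0.394), nor did Foxm1 (0.71 ± 0.52, edgeR adjusted p = 0.604).

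Schedules were compared within each dose. Mybl1 was lower in 5% therapy than in 5% prevention by -1.83 ± 0.26 on the log2 scale (edgeR adjusted p = 0.00628), the 1 factor of 9 to pass, where 0.194% of genes were called and 0.107% were called lower; without 5% therapy replicate 1 the value was -1.70 (edgeR adjusted p = 0.0725). At 20% no factor passed between therapy and prevention in edgeR, where 0.0818% of genes were called. DESeq2 called 1, Mybl1 (adjusted p = 0.0476). Ranges were higher in therapy without overlap for 3 of 9 factors, where this held for 8.44% of all genes. They were E2f7 (1.94 ± 0.62), Mybl1 (0.80 ± 0.24) and Foxm1 (1.47 ± 0.51), with edgeR adjusted p of 0.181, 0.163 and 0.220.

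In the gate upstream of the E2F factors, RNA of cyclin D genes and of kinase inhibitors moved. RB inactivation itself was not measured. Ccnd1, the cyclin that starts RB inactivation, averaged 17.1 CPM in FAT-MASH, 67.6 CPM in 5% prevention, 140 CPM in 20% prevention and 178 CPM in 20% therapy. Its log2 rise was 1.99 ± 0.28, 3.03 ± 0.29 and 3.39 ± 0.30 in these groups (edgeR adjusted p 0.00121, 5.67e-06 and 3.2e-07). Over all genes, 10.2% were called higher and 11.3% lower in 20% therapy, and 6.83% and 8.26% in 20% prevention. In FAT-MASH against normal diet the shares were 7.81% and 5.92%. In 20% therapy 4 of 13 genes of this gate rose and 1 fell. Ccnd2 (1.13 ± 0.23), Cdk6 (0.37 ± 0.10) and the kinase inhibitor Cdkn2b (2.25 ± 0.60) were the other risers. The inhibitor Cdkn1c fell by 1.77 on the log2 scale. In 20% prevention 2 rose, Ccnd1 and Ccnd2, and Cdkn1c fell; that Cdkn1c call held in 7 of 14 alternatives and was lost with library totals, with all 25 libraries in 1 fit and without 5 of the 6 libraries, all but 20% prevention replicate 3 (adjusted p up to 0.128). FAT-MASH against normal diet had raised 4 of the 13, namely Ccnd1 (1.01 ± 0.29) and the inhibitors Cdkn1a (2.83 ± 0.36), Cdkn1c (1.20 ± 0.39) and Cdkn2c (1.47 ± 0.15). Without normal diet replicate 3 the count was 2, and the Cdkn1c call held in 7 of 14 alternatives and that of Ccnd1 in 9.

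Among the E2F dimer partners, pocket proteins and other E2F genes, 2 of 8 rose in 20% therapy, where 10.2% of all genes were called higher. They were the pocket protein gene Rbl1 (1.29 ± 0.27) and the repressor E2f4 (0.31 ± 0.11). In 20% prevention 1 of 8 rose, E2f6 (0.44 ± 0.13), where 6.83% of all genes were called higher. The E2f4 call held in 5 of 14 alternatives (adjusted p up to 0.179) and the E2f6 call in 10 (up to 0.106). None of 4 genes of the MuvB core passed in a comparison with FAT-MASH in edgeR or DESeq2; Lin54 was not analysed here. In the MYC network 1 of 10 genes rose and 2 fell in 20% therapy, where 10.2% of all genes were called higher and 11.3% lower. In 20% prevention 1 rose and 1 fell, where 6.83% were called higher and 8.26% lower. In the 20% comparisons the list was thus close to the shares over all genes. In FAT-MASH against normal diet 3 of the 10 rose and 2 fell, where 7.81% of all genes were called higher and 5.92% lower. With a library left out those counts were 1 to 2 and 1 to 2. The riser in both 20% groups was Mxd3, a MAX partner that opposes MYC and is tied to S phase. It rose in 20% therapy by 4.53 ± 0.67 from a mean of 0.108 CPM, and by 2.98 ± 0.66 in 20% prevention. Mycl, the MYC relative that the regimen had raised by 1.74 ± 0.19, fell in both 20% groups, by 0.90 and 0.71 on the log2 scale, and Mxi1 fell in 20% therapy by 0.45. The Mxi1 call held in 8 of 14 alternatives, and with library totals its log2 difference was -0.15 (adjusted p = 0.445).

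Genes that these factors are known to control also rose. Over all genes, 10.2% were called higher and 11.3% lower in 20% therapy, and 6.83% and 8.26% in 20% prevention. The shares were 0.966% and 1.31% in 5% prevention, and 7.81% and 5.92% in FAT-MASH against normal diet. They stand beside the list counts that follow. Of 22 S-phase genes bound by E2F, 18 rose and 1 fell in 20% therapy, with a median log2 difference of 1.09 beside 0.00 over all genes. They included the replicative helicase genes Mcm5 (3.08 ± 0.37), Mcm6 (1.90 ± 0.20) and Mcm3 (1.83 ± 0.21), and Uhrf1 (3.31 ± 0.36), which maintains DNA methylation at replication. In 20% prevention 8 of the 22 rose and 2 fell; Tk1, thymidine kinase, was lower (-0.87 ± 0.16), and Mcm5 was higher (1.87 ± 0.36). In 5% prevention 4 rose, among them Mcm6 (0.89 ± 0.20), and in 5% therapy none passed.

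Of 22 genes of G2 and mitosis controlled by B-MYB and FOXM1, 22 rose in 20% therapy and 20 in 20% prevention, and none fell. The median log2 difference was 4.19 and 2.78, unchanged with Cdc25c, which had 0 counts in FAT-MASH, at the bound that 3 counts over the group allow. That bound takes counts as independent. Ccnb1, mitotic cyclin B1, averaged 0.263 CPM in FAT-MASH, 5.53 CPM in 20% prevention and 17.0 CPM in 20% therapy, a log2 rise of 4.37 ± 0.60 and 5.99 ± 0.62 (edgeR adjusted p 8.09e-05 and 1.31e-06). Cdc20, which activates the anaphase-promoting complex, rose by 3.88 ± 0.51 and 5.35 ± 0.53. Leaving out any of the 6 libraries kept the count at 22 in 20% therapy and at 19 to 20 in 20% prevention. In 5% prevention 9 of the 22 rose, led by Ube2c (2.40 ± 0.42), a count that was 2 without FAT-MASH replicate 1, 0 with voom quality weights and 18 with no filter on low counts. In 5% therapy 0 of the 22 passed in edgeR, and DESeq2 called 0 too, while 4 passed with no filter on low counts. The S-phase count of 4 in 5% prevention likewise fell to 0 without FAT-MASH replicate 1.

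Genes of cytokinesis, a step whose failure makes hepatocytes binucleate, also rose. In 20% therapy 10 of 13 rose (median 2.64) and in 20% prevention 9 of 13 (median 1.34), none fell, and 5% prevention had 3 that rose, or 1 without FAT-MASH replicate 1, 0 with voom quality weights and 5 with DESeq2. Racgap1 and Prc1, parts of the central spindle, rose by 4.63 ± 0.46 and 4.77 ± 0.52 in 20% therapy and by 3.48 ± 0.44 and 3.61 ± 0.51 in 20% prevention. This list shares Cdk1, Aurkb, Kif23 and Prc1 with the G2 and mitosis list, shares Ccne1 with the S-phase list and holds Mybl2. MYC target genes of ribosome building and growth rose less: 9 of 18 in 20% therapy (median 0.43) and 8 of 18 in 20% prevention (median 0.39), none falling. Nop58, a ribosomal RNA modification factor, rose by 1.39 ± 0.15 and 1.11 ± 0.15, and Odc1, the polyamine enzyme, by 0.77 ± 0.09 and 0.65 ± 0.09. The prevention count of 8 fell to 5 without FAT-MASH replicate 2. FAT-MASH against normal diet had gone the other way, with 6 of the 18 lower, among them Odc1 (-0.84 ± 0.09), and 1 higher, Npm1 (0.55 ± 0.14); without normal diet replicate 2 these counts were 3 and 0. Scaled to library totals, 20% therapy raised 15 of the 18 MYC targets, 7 of 13 gate genes, 4 of 8 E2F partners and 2 of 4 MuvB genes. With that scaling 6520 of all genes were called in either direction, against 4195 with trimmed means.

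**Figure D3:**
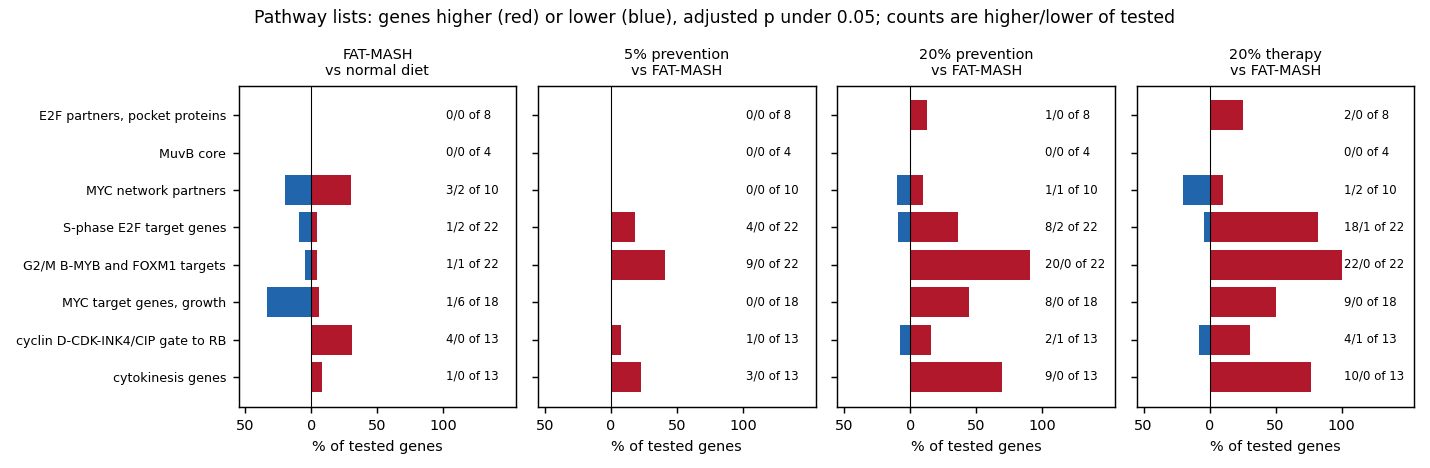
Share of tested genes in each pathway list that were higher (red) or lower (blue) in 4 comparisons, with counts of higher and lower genes beside each bar. G2 and mitosis targets reach 20 of 22 in 20% prevention and 22 of 22 in 20% therapy, while E2F partners and MuvB genes stay at 0 to 2; 5% therapy, not drawn, had none in any list.

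Over the 18 first-batch libraries, the genes with the nearest pattern to each factor were found by the root mean square difference of log2 CPM centred on each gene's own mean, among 12147 genes. For Mybl1 they were Ccdc120 (0.513), Ccnd1 (0.540) and Tspan8 (0.542), where the factor's own SD was 1.70. For Foxm1 they were Cdca2 (0.512), Bub1b (0.553) and Ect2 (0.554), with its own SD at 1.61; Bub1b encodes a spindle checkpoint kinase and Ect2 a cytokinesis factor. Myc was nearest to Thbd (0.550), Mthfd2 (0.588) and Btg2 (0.592), at an SD of 1.03. E2f1 was nearest to Ermp1 (0.195, SD 0.370), E2f2 to Fscn1 (0.300, SD 0.646), E2f3 to Psme3 (0.150, SD 0.275), E2f7 to Tonsl (0.580, SD 0.855), E2f8 to Gstm2 (0.468, SD 0.727) and Mybl2 to Whrn (0.589, SD 0.782).

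**Figure D4:**
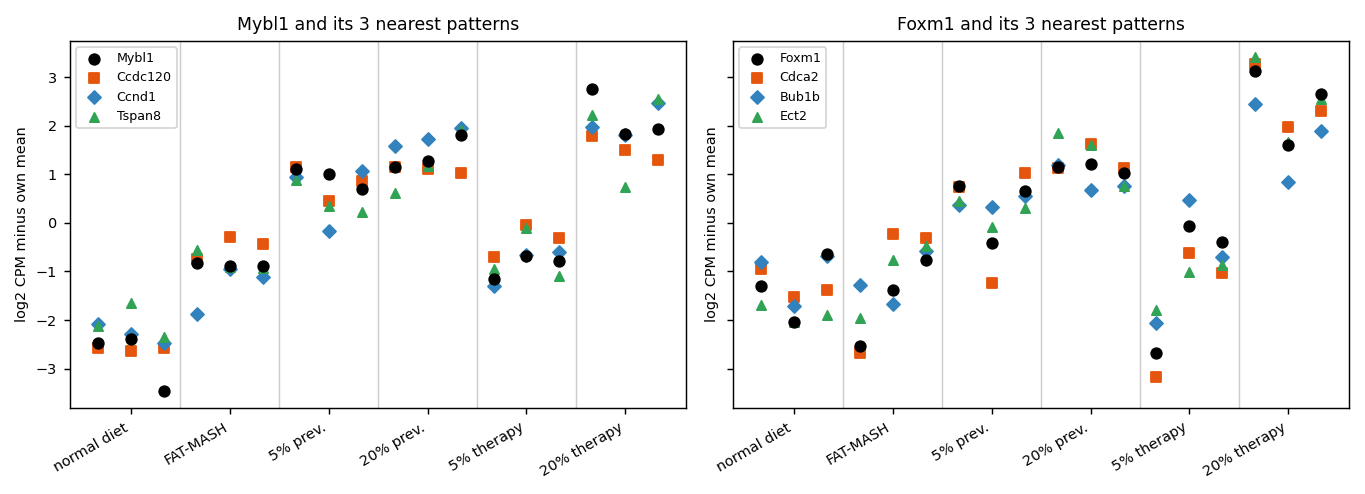
Level of Mybl1 (left) and Foxm1 (right) with their 3 nearest genes in each of the 18 first-batch libraries, as log2 CPM minus each gene's own mean, 3 libraries per group. In both panels every library of 20% prevention and 20% therapy lies above the FAT-MASH libraries of the same gene.

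Markers of other cells moved in the same groups. The 6 cholangiocyte markers summed to 98.0 to 119 CPM in FAT-MASH, 175 to 285 CPM in 5% prevention, 206 to 531 CPM in 20% prevention and 166 to 752 CPM in 20% therapy, with 1, 4 and 5 of 6 called higher and none at 0. Neutrophil markers summed to 8.69 to 10.4 CPM in FAT-MASH and 14.8 to 23.2 CPM in 20% therapy, where 2 of the 3 tested rose and none of the 6 was at 0. Hepatocyte markers fell for 3 of 7 in 20% prevention and 5 of 7 in 20% therapy, and erythroid markers for 3 and 4 of 7. Over all genes, 6.83% were called higher and 8.26% lower in 20% prevention, and 10.2% and 11.3% in 20% therapy. In 5% prevention 0.966% were called higher. No marker of macrophages (6 tested), T and NK cells (6) or B and plasma cells (5) passed in any of the 4 mannose comparisons. Of 6 each, 1 stellate marker rose and 1 endothelial marker fell in 20% therapy, near the shares over all genes. Against normal diet, FAT-MASH had raised 6 of 6 macrophage markers, 5 of 6 stellate markers and 2 of 3 tested neutrophil markers. It had also raised 2 of 7 erythroid markers and 1 of 6 endothelial markers, and 2 of 7 hepatocyte markers fell. There 7.81% of all genes were called higher and 5.92% lower. The part of all these markers in the rises of Mybl1, Foxm1 and the other factors was not tested.

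On normal diet none of the 9 factors passed the test of mannose. This held at 5%, where 0% of 18462 genes were called, and at 20%, where 0.00542% were called; none had an unadjusted p under 0.05 in either, and DESeq2 called 0 as well. Mybl1 had 0.327 and 1.46 CPM without mannose, 0.679 and 0.445 CPM at 5% and 0.225, 0.488 and 0.543 CPM at 20%. The ranges overlapped, and the 95% interval of the log2 difference at 20% was -3.00 to 0.83. Foxm1 had 0.572 and 0.827 CPM without mannose, 0.533 and 0.222 CPM at 5% and 0.113, 0.533 and 0 CPM at 20%. The last was the only Foxm1 library with no count, which allows up to 0.0679 CPM (3 counts, counting error only). That bound takes counts as independent and would be higher if mates were counted singly. Foxm1 lay below the controls without overlap at both doses, with log2 differences of -0.88 ± 1.51 and -1.69 (95% interval at 20% -4.67 to 1.30). E2f7 had 0.0409 and 0.118 CPM without mannose, 0.242 and 0.361 CPM at 5% and 0.315, 0.0888 and 0.679 CPM at 20%. It lay above the controls at 5% (log2 difference 1.88 ± 1.55) and overlapped them at 20% (2.14 ± 1.48, 95% interval -1.11 to 5.39). For E2f3 the interval at 20% was narrower, -0.78 to 0.04, at 9.36 and 11.7 CPM without mannose and 8.20, 9.14 and 7.13 CPM with it, a lower range without overlap. Among the 9 factors, E2f1 and E2f7 had higher ranges and Foxm1 a lower one without overlap at 5%, where 16.5% of all genes were so higher and 18.3% lower; Foxm1 and E2f3 had lower ranges at 20%, where 11.2% of genes did. No tested gene of the 8 pathway lists passed at either dose. On normal diet 21 of 22 S-phase genes and 19 of 22 G2 and mitosis genes were tested.

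The difference in the effect of 12 weeks of 20% mannose between the diets was tested directly, as prevention against FAT-MASH minus mannose against none on normal diet, over all 25 libraries. Of the 9 factors 3 differed, all with a more positive effect on the regimen, where 5.67% of 21373 genes differed and 2.26% in this direction. They were E2f3 (1.05 ± 0.22), Mybl1 (3.41 ± 0.58) and Foxm1 (4.31 ± 1.07), with edgeR adjusted p of 0.00538, 0.001 and 0.0175. The Mybl1 value fell to 1.97 (edgeR adjusted p = 0.0697) without normal diet replicate 5, the library at 1.46 CPM. E2f1, E2f2, E2f7, E2f8, Mybl2 and Myc did not pass. The diets sat in different batches, each with its own controls. In the fits within a batch, the effect on the regimen was 0.69 for E2f3, 2.32 for Mybl1 and 2.64 for Foxm1. On normal diet it was -0.37, -1.09 and -1.69, falls that did not pass. With 20% mannose on normal diet, Mybl1 had 10 to 24 counts a library and Foxm1 0 to 24.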

How the data were processed

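The authors deposited a table of raw read counts per gene for 25 whole-liver poly-A libraries, with exon lengths. Per the file header, counts came from featureCounts 2.0.1 with GENCODE mouse 31 and no strand or pair option; the submitters' processing notes name STAR, featureCounts 2.0.6 and GRCm39. Of the counts from 1 to 49, 74.0% to 81.3% were even, as when mates are counted singly.

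Groups came from the labels. Genes passing filterByExpr (minimum count 10) were tested with edgeR 4.0.16 quasi-likelihood fits (R 4.3.3, TMM), 1 fit per batch and 1 over 25 libraries for the difference between diets; p-values were Benjamini-Hochberg adjusted over all genes at 0.05, and SE is the log2 fold change over the square root of F. The titles call the libraries biological replicates. Members and lists were chosen with earlier results of these data known. Named were all members, and up to 4 genes per list and comparison with the smallest p; Cdkn2b was added after its value was seen. Alternatives, 1 of them chosen after the data were seen, used DESeq2 1.42.0, limma 3.58.1 voom, other scalings, filters and fits, a replicate block and left-out libraries. The code was tested on simulated data. Promoters are from RefSeq (GRCm38.p6), which held entries for 6 members; none of their coordinates was set against those of the counts.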

Additional observations from a re-analysis of the deposited data

Results flagged for a closer look

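The effect of 20% mannose over 12 weeks differed between the regimen and normal diet for 3 of the 9 factors, by a test of the difference itself over all 25 libraries (edgeR quasi-likelihood, Benjamini-Hochberg adjusted). In each, a rise on the regimen stood against a fall on normal diet that did not pass. For Mybl1 the effect was 3.41 higher on the log2 scale on the regimen; it was 1.97 without normal diet replicate 5, and did not pass there or with voom quality weights (3.05, adjusted p = 0.167). For Foxm1 the difference was 4.31, and it did not pass with voom quality weights (5.59, adjusted p = 0.0713) or with only the groups compared (4.30, adjusted p = 0.0584); with a block for the library numbers it was 6.43. For E2f3 the difference was 1.05, and it passed in all 18 alternatives.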

How the results depend on the processing

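Of 1517 member values under the other settings, 1439 kept their side of the threshold, 42 passed only there, 36 lost their call and none that was called changed sign; 74 uncalled values changed sign. Of 1049 values of named list genes, 110 lost their call and 0 reversed. The count of members called changed as follows, with some smaller moves left out. In FAT-MASH against normal diet (1) it was 2 with DESeq2, 0 with voom and 1 to 2 with a library left out. In 5% prevention (1) it was 2 with DESeq2 and 3 without a filter. In 20% prevention (3) it was 5 with DESeq2, 6 without a filter, 6 with library totals and 5 with only the groups compared. In 20% therapy (7) it was 3 to 5 with a library left out and 6 with only the groups compared or all 25 libraries. It was 8 with DESeq2, without a filter, with voom and with library totals. Between prevention doses (1) it was 2 without a filter, 0 with only the groups compared and 0 to 1 with a library left out. Between therapy doses (3) it was 5 with DESeq2 and 7 with library totals. Between schedules it was 2 without a filter and 0 to 1 with a library left out at 5% (1), and 1 with DESeq2, 2 without a filter and 2 with voom at 20% (0). The difference between diets (3) gave 1 with voom, 2 with only the groups compared or without normal diet replicate 5, and 4 without a filter. The cause was not tested.

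Counts over all genes moved too. Across alternatives other than leaving out a library, 5% prevention went from 445 to between 376 and 1254, 5% therapy from 7 to between 1 and 339, 20% therapy from 4195 to between 3708 and 6520, prevention doses from 87 to between 20 and 819, therapy doses from 3455 to between 2752 and 5627, schedules from 38 to between 5 and 862 at 5% and from 16 to between 0 and 702 at 20%, normal diet from 0 to 222 at 5% and from 1 to between 0 and 254 at 20%, and the difference between diets from 1211 to between 830 and 1819. With a library left out the extremes were 127 to 344 in 5% prevention (lowest without 5% prevention replicate 1), 1938 to 2476 in 20% prevention (without 20% prevention replicate 2), 1 to 179 between prevention doses (without 20% prevention replicate 2), 2301 to 3308 between therapy doses (without 20% therapy replicate 1) 2 to 201 and 1 to 111 between schedules at 5% and 20%, 0 to 43 in 5% therapy, 0 to 148 and 0 to 159 on normal diet (highest without normal diet replicate 5), and 524 to 1206 for the difference between diets (without normal diet replicate 4). Library totals alone moved the median log2 difference of all genes to 0.20 in 20% prevention and to 0.30 in 20% therapy, and the share of calls that were higher from 56.9% to 68.1% in FAT-MASH against normal diet, from 24.1% to 65.7% and from 47.2% to 84.1% between prevention and therapy doses, from 44.7% to 23.5% and from 31.2% to 88.0% between schedules at 5% and 20%, and from 39.9% to 79.2% for the difference between diets.

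Replicate numbers did not pair the first-batch libraries: over 45 same-numbered pairs the median correlation of deviations was -0.017, and 1 pair exceeded 0.1. With the replicate block the count of members called between prevention doses was 0, since E2f3 had an adjusted p of 0.0632. In the second batch the titles share no number between controls and mannose, but the deposited column names do (11 and 13, and 12 at 20% mannose). Over 6 same-numbered pairs the correlation lay between -0.017 and 0.063. In a group of 2 libraries the deviations mirror each other, so these pairs are not 6 separate checks. Both pairs of control and 5% mannose had 0.063. A replicate block by these numbers, chosen after the data were seen, gave 0 members called at 5%, 0 at 20% and 3 for the difference between diets, with 16, 32 and 1019 of all genes called; Foxm1 at 20% on normal diet moved to -4.08 (edgeR adjusted p = 0.816). Counts were low for E2f7 in FAT-MASH, 8 to 16 a library, and for Foxm1 on normal diet with 20% mannose, with 0 in 1 library.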
